A study of Mus musculus with 12 samples.

Results

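Ppy+Sst+ bihormonal cells of the YFP+ fraction were mouse islet cells whose counts passed the thresholds of both Ppy and Sst and stayed at or below those of Gcg and Ins2. The level of a hormone was the natural log of 1 plus its unique molecular identifiers (UMIs, counts of single transcripts) per 10000 UMIs of the cell. The thresholds were 3.23 for Ppy, 3.32 for Sst, 5.12 for Gcg and 6.36 for Ins2, which equal 24.3, 26.7, 166 and 577 UMIs per 10000. Cells with a level over 3 for Cd74, Col3a1 or Plvap, genes of antigen-presenting, stromal and endothelial cells, were left out as non-endocrine. The rule found 261 cells, 102 in experiment 1 and 159 in experiment 2, among 2798 YFP+ cells and 5982 cells in all 4 libraries. They made up 7.99% (95% Clopper-Pearson interval 6.56 to 9.62) of the endocrine YFP+ cells in experiment 1 and 11.2% (9.62 to 13.0) in experiment 2, with a mean of 9.61 ± 2.28% (SD, n = 2). Intervals cover counting error only.

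Islet cells came from Ppy-YFPi mice, in which rtTA replaces the coding sequence of one Ppy allele, TetO-Cre follows rtTA in the presence of doxycycline (DOX), and Cre removes the stop before YFP at the R26 locus for good. All mice kept 1 wild-type Ppy allele, drank 1 mg/ml DOX starting when 1 month old and were analysed when 2 months old, and no group was without DOX or without the transgenes. In each of 2 independent experiments islets of several mice were pooled, and the sorted YFP+ and YFP- fractions were loaded on separate 10x Chromium lanes. The libraries with no number in their labels are called experiment 1. The YFP+ libraries held 1300 and 1498 cells with 11705631 and 11523971 UMIs, and the YFP- libraries 1495 and 1689 cells with 18330975 and 10683494 UMIs. Besides the bihormonal cells, the YFP+ libraries held 721 and 828 monohormonal Ppy+ cells, and no endocrine cell that passed the threshold of Sst without that of Ppy. All 24 and 81 non-endocrine cells of these libraries passed the Ppy threshold as well, with medians of 74.4 and 105 UMIs per 10000. Passing it therefore did not set YFP+ cells apart, and the share of bihormonal cells rested on the other thresholds. The YFP- libraries held 135 and 141 monohormonal Sst+ cells and 78 and 59 Ppy+Sst+ cells. The YFP label reports the activity of the Ppy locus during DOX treatment, not at the time of sorting.

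Pancreatic polypeptide, encoded by Ppy, is the hormone of γ-cells, and somatostatin, encoded by Sst, is the hormone of δ-cells. Somatostatin acts within the islet on neighbouring cells and restrains the secretion of insulin and glucagon, and the transcription factor Hhex is required for δ-cells. γ-cells also express Pyy, which encodes the related peptide YY, and α-cells produce glucagon, encoded by Gcg.

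Both hormone genes lie on the minus strand, and the 200 bases before each transcription start are shown because transcripts from both genes were counted in the same cells. They were taken from RefSeq on GRCm38.p6, with Sst at chr16:23890845-23891044 and Ppy at chr11:102101320-102101519, 5′ to 3′ along the gene. Capitals mark TGACGTCA, the palindrome known as the cAMP response element, as well as TATAAA and TAAT, the core bases read by many homeodomain factors.
Sst promoter: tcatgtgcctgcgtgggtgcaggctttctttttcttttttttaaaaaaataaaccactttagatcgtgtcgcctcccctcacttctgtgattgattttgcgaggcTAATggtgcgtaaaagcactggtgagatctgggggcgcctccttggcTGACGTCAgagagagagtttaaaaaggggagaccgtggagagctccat
Ppy promoter: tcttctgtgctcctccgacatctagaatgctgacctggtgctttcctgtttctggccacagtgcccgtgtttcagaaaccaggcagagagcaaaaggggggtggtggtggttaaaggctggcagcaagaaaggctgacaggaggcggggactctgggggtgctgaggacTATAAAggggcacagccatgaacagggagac

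Read on both strands, the Sst window held TGACGTCA from base 48 to 41 before the start and TAAT from base 95 to 92. The Ppy window held TATAAA from base 31 to 26 before the start and neither other motif. Of 32851 promoters cut to the same 200 bases, 1.47% held TGACGTCA, 9.96% TATAAA and 47.0% TAAT. These matches are a description of the letters in these windows.

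Most bihormonal cells carried less of each hormone than monohormonal cells, and the balance between the hormones ran over a wide range. Since the rule used Ppy and Sst, their levels are given as a description. The median Ppy level of the bihormonal cells was 390 UMIs per 10000 in experiment 1 and 808 in experiment 2, against 2574 and 2412 in monohormonal Ppy+ cells. Their median Sst level was 1273 and 607 UMIs per 10000, against 1977 and 1268 in monohormonal Sst+ cells of the YFP- fraction and 1.5 and 1.4 in monohormonal Ppy+ cells. Each transcript is counted once at its 3′ end, so that UMIs of Sst and Ppy in a cell can be set side by side without a correction for length. Sst exceeded Ppy in 73 of 102 cells (71.6%, 95% interval 61.8 to 80.1) and in 76 of 159 cells (47.8%, 39.8 to 55.9). The cells did not sit near 1 balance: the share of Sst in the sum of both hormones ran from 1.03 to 98.7% in experiment 1 and from 1.55 to 97.5% in experiment 2, with medians of 77.9 and 41.4%. Cells with more Ppy had less Sst, with Pearson's r of -0.744 and -0.714 and Spearman's rho of -0.671 and -0.746 over 102 and 159 cells between the logs of both levels. Both levels are shares of the UMIs of 1 cell and both were thresholded, which enters these correlations.

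**Figure D1:**
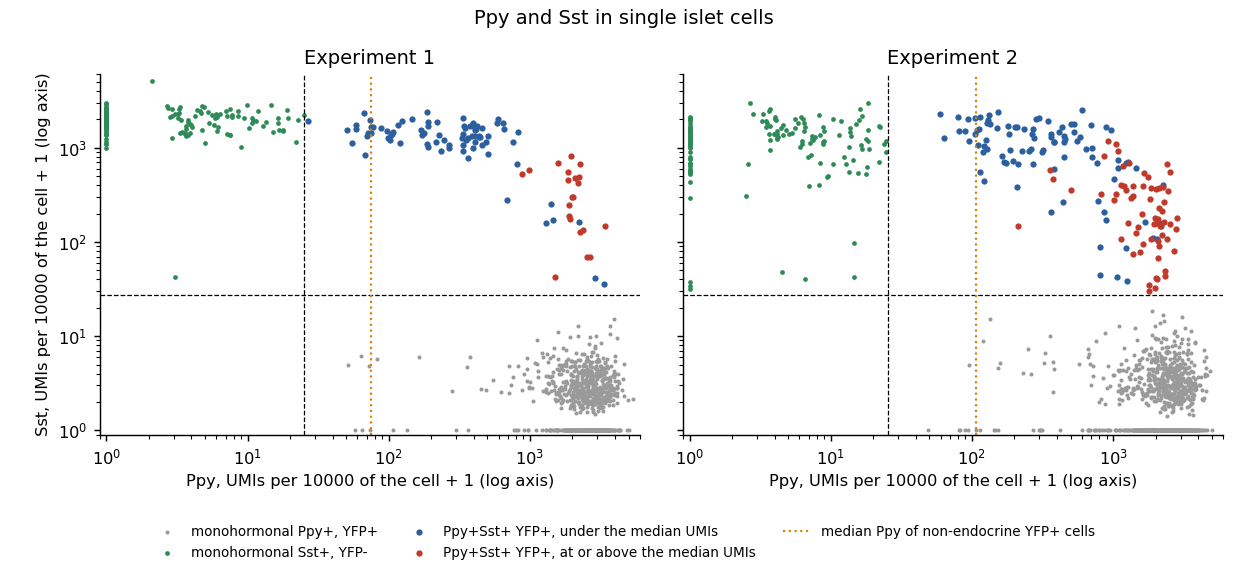
Each point is a cell, placed by its Ppy and Sst UMIs per 10000 plus 1 on log axes, for experiment 1 and 2; dashed lines are the thresholds and the dotted line is the median Ppy level of non-endocrine YFP+ cells (74.4 and 105). Bihormonal cells with few UMIs (blue) lie mostly at high Sst and low Ppy, with median Ppy levels of 335 and 320, and those with many UMIs (red) at high Ppy and low Sst, with median Ppy levels of 1989 and 1808.

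At the Sst threshold the nearest cell inside had a level of 3.41 and the nearest outside 2.93. At the Ppy threshold the nearest cell inside had 3.29, and no YFP+ cell with Sst lay below it. Only 5 and 12 bihormonal cells were within 1 log unit of the Sst threshold, and 7 and 2 within 1 of the Ppy threshold. Ppy RNA was also counted in cells that should lack it. All 24 and 81 non-endocrine cells of the YFP+ libraries stood above the Ppy threshold, with medians of 74.4 and 105 UMIs per 10000, whereas none reached the Sst threshold and their highest Sst level was 5.91 and 11.6 UMIs per 10000. Of the bihormonal cells, 90 of 102 and 150 of 159 had more Ppy than the median non-endocrine cell, and 29 and 131 had more than its 95th percentile. These made up 28.4 and 82.4% of the bihormonal cells. In experiment 1 that percentile, 786 UMIs per 10000, rested on the top few of 24 cells, whose upper quartile was 89.2 and whose Gcg level reached 2718, whereas it was 174 in experiment 2. The 3 comparisons of genes below were repeated with the cells above this percentile alone.

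The bihormonal cells carried the δ-cell markers Hhex and Cd24a, a surface glycoprotein, in far more cells than monohormonal Ppy+ cells did. Hhex was counted in 43.1% (33.4 to 53.3) and 39.0% (31.4 to 47.0) of the bihormonal cells, in 51.9 and 48.2% of monohormonal Sst+ cells and in 0.555 and 1.33% of monohormonal Ppy+ cells. Cd24a was counted in 84.3 and 79.2% of the bihormonal cells, in 92.6 and 83.0% of monohormonal Sst+ cells and in 0.555 and 1.45% of monohormonal Ppy+ cells. In non-endocrine cells of the same libraries Hhex was found in 0 of 24 and 0 of 81, and Cd24a in 2 and 1. For Hhex this allows shares of up to 12.5 and 3.70% with a Hhex UMI and says nothing of cells that express it without one. Median depth was 3885 and 4229 UMIs in bihormonal cells, 7575 and 5887 in monohormonal Ppy+ cells, 4130 and 2942 in monohormonal Sst+ cells and 3464 and 2302 in non-endocrine cells. Cells were then thinned to 2000 UMIs each, which left out 1 and 18 bihormonal and 2 and 42 monohormonal Sst+ cells as too shallow. Hhex was then counted in 23.8% (15.9 to 33.3) and 17.0% (11.2 to 24.3) of the bihormonal cells, against 30.1% (22.4 to 38.6) and 42.4% (32.5 to 52.8) of monohormonal Sst+ cells and 0.420 and 0.636% of monohormonal Ppy+ cells. Cd24a was counted in 64.4% (54.2 to 73.6) and 51.8% (43.2 to 60.3) of the bihormonal cells, against 72.2% (63.7 to 79.6) and 80.8% (71.7 to 88.0) of monohormonal Sst+ cells. At equal depth the intervals of bihormonal and monohormonal Sst+ cells overlapped in experiment 1 and lay apart in experiment 2 for both genes.

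Transcripts of the label were counted in these cells and not in Ppy+Sst+ cells of the YFP- fraction, whereas transcripts of its driver were counted in both. YFP was counted in 52.9 and 44.7% of the bihormonal YFP+ cells, in 70.6 and 55.8% of monohormonal Ppy+ cells, in 58.3 and 27.2% of non-endocrine YFP+ cells, and in 0 of 78 and 0 of 59 Ppy+Sst+ YFP- cells, which allows shares of up to 3.85 and 5.08% with a YFP UMI and says nothing of cells that carry the label without one. rtTA, which is transcribed from the Ppy locus itself, was counted in 35.3% (26.1 to 45.4) and 33.3% (26.1 to 41.2) of the bihormonal cells, in 63.5 and 43.7% of monohormonal Ppy+ cells, and in 0 of 78 and 2 of 59 Ppy+Sst+ YFP- cells. Per 1000 Ppy UMIs the bihormonal YFP+ cells held 2.82 (2.46 to 3.23) and 1.03 (0.883 to 1.198) rtTA UMIs. The Ppy+Sst+ YFP- cells held none in experiment 1, which allows up to 0.480, and 0.842 (0.174 to 2.46) on 3 UMIs in experiment 2, where a difference was not detectable at this depth. No non-endocrine YFP+ cell held rtTA, but their 1374 and 2205 Ppy UMIs allowed up to 2.18 and 1.36 rtTA UMIs per 1000 Ppy UMIs. Monohormonal Ppy+ cells held 1.91 and 1.09 per 1000, so that a lack of rtTA was not detectable in non-endocrine cells at this depth. Among the bihormonal cells with rtTA, Cd24a was present in 28 of 36 (77.8%) and in 43 of 53 (81.1%), against 2 of 458 and 6 of 362 monohormonal Ppy+ cells with rtTA.

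Against monohormonal Ppy+ cells, the comparison asked which genes other than the hormones accompany Sst within the labelled population. UMIs were summed per class and experiment, all 8 cell classes entered 1 edgeR quasi-likelihood fit with the experiment as a block, and calls required a Benjamini-Hochberg adjusted p of 0.05 or less together with a log2 fold change beyond 0.72 in size. The classes were cut from Ppy and Sst of the same cells, so that the tests say which genes followed the hormones, and sums of 2 experiments are the replicates. Of 9654 genes, 349 were called (3.62%), 239 higher (2.48%) and 110 lower (1.14%) in the bihormonal cells. With 1 YFP+ library left out the counts were 107 without experiment 1 and 134 without experiment 2, and without the block 176. DESeq2 called 223 genes higher and 46 lower.

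Of the δ-cell list, which was chosen with earlier results of these data known, 8 of 10 tested genes were called higher and none lower. The median log2 fold change was 5.68, or 4.90 with genes absent from monohormonal Ppy+ cells set to their bounds, against -0.018 over all genes. Hhex stood at 93.0 and 71.4 CPM (UMIs per 1000000 UMIs of the sum, with TMM scaling) in the bihormonal cells of experiment 1 and 2 and at 1.78 and 2.72 in monohormonal Ppy+ cells (log2 fold change 5.12 ± 0.35, SE; adjusted p = 6.18e-10). Cd24a stood at 365 and 299 CPM against 1.98 and 3.35 (6.93 ± 0.26). Fam159b reached 585 and 414 CPM against 3.76 and 7.32 (6.50 ± 0.27). Frzb, a secreted antagonist of Wnt signalling, had 103 and 62.9 CPM against 2.18 and 3.97 (4.68 ± 0.34). For these genes both experiments lay far outside the range of the other class. Rbp4, which encodes a retinol carrier, differed less, with 2389 and 1335 CPM against 460 and 450 (2.02 ± 0.30), and was not called without the YFP+ library of experiment 1 (adjusted p = 0.0877). The receptor-type phosphatase gene Ptprz1, with 39.7 and 15.4 CPM, was absent from monohormonal Ppy+ cells and thus at least 79.0-fold higher at a floor of 3 counts over the group. The proteoglycan gene Spock3 was at least 45.1-fold and the ghrelin receptor gene Ghsr at least 14.5-fold higher, the latter on 9 UMIs and not called by DESeq2 or without the YFP+ library of experiment 1. Casr (0.15 ± 0.21) was not called, and Bche and Lepr had too few counts to be tested.

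Outside the list, the genes with the largest increases included Ly6h, Cfap61 and Dct. Ly6h had 142 and 118 CPM in the bihormonal cells and 0.594 and 1.25 in monohormonal Ppy+ cells (log2 fold change 7.04 ± 0.33). Cfap61 (5.77 ± 0.49) and Dct (5.52 ± 0.55), the latter an enzyme of melanin synthesis, followed. The adhesion receptor gene Adgrf5 was at least 38.7-fold higher. Fermt1, Pdyn, the dynorphin precursor gene, and Ppp1r17 rested on 3, 3 and 1 UMIs in all monohormonal Ppy+ cells, and their ratios had counting intervals of 21.6 to 341, 15.0 to 248 and 18.1 to 4580. Adgrf5 was not called without the YFP+ library of experiment 2, and Pdyn and Ppp1r17 were not without that of experiment 1.

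Transcription factor genes shared by endocrine cells moved in part. Of 8 tested, 2 were called higher and none lower: Rfx6 had 26.0 and 23.8 CPM against 4.75 and 4.6 (2.37 ± 0.30) and Insm1 56.1 and 55.3 against 25.5 and 24.1 (1.16 ± 0.21), the latter not called without either YFP+ library. Of 12 β-cell genes, 2 were called higher and none lower. Iapp, the gene of islet amyloid polypeptide, which δ-cells also express, rose from 3155 and 2904 CPM to 16239 and 12557 (2.23 ± 0.13) in the sums. In the median cell Iapp stood at 260 and 153 UMIs per 10000 in the bihormonal cells against 3.48 and 1.83 in monohormonal Ppy+ cells, whose 95th percentiles were 83.8 and 101 and whose highest cells reached 2192 and 2140. Pdx1 rose from 10.1 and 6.90 CPM to 45.1 and 20.0 (1.86 ± 0.28). Pdx1 was not called without the YFP+ library of experiment 1 or with thinned cells, with an adjusted p of up to 0.802. Ins1, with 294 and 302 CPM against 298 and 270, overlapped between the classes.

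Some γ- and α-cell genes were lower in the bihormonal cells. Of 10 genes of the γ-cell list, 5 were called lower and none higher, with a median log2 fold change of -0.57. Pyy fell from 305575 and 325708 CPM to 107864 and 155302 (-1.26 ± 0.23). The tetraspanin gene Tspan8 (-0.85 ± 0.18), Foxp2 (-1.87 ± 0.39), which encodes a forkhead factor, and Kctd12b (-1.17 ± 0.27) fell as well. The folate receptor gene Folr1 (-1.33 ± 0.24) differed strongly between experiments, with 227 and 24.6 CPM in the bihormonal cells against 520 and 68.4, so that the classes overlapped. Etv1 (-0.28), Ski (0.08), Fev (0.25) and Epcam (0.49) were not called. Tspan8, Foxp2 and Kctd12b lost their calls without either YFP+ library, with adjusted p of up to 0.372, 0.288 and 0.437 over all settings. With only the bihormonal cells above the free Ppy level or only those with a rtTA UMI, Tspan8, Folr1, Foxp2 and Kctd12b were no longer called. Folr1 and Kctd12b were also not called by DESeq2 or without the block. Per 1000000 UMIs without TMM scaling, Kctd12b stood at 18.3 and 10.8 in the bihormonal cells. In non-endocrine cells of the same libraries it stood at 61.9 and 9.62, on 6 and 2 UMIs, so that it was not detectable above their level. In the YFP- libraries non-endocrine cells held 14.2 and 14.4, against 0 and 2.28 in monohormonal Sst+ cells. The part of free RNA in Kctd12b was not tested.

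Of 8 α-cell genes, 3 were called lower and none higher, with a median log2 fold change of -0.73. Ttr, the gene of the thyroid hormone carrier transthyretin, stood at 1665 and 2187 CPM in the bihormonal cells against 5900 and 5191 in monohormonal Ppy+ cells (-1.52 ± 0.25), and Gc, the vitamin D-binding protein gene, at 122 and 170 against 264 and 296 (-0.91 ± 0.22). Ttr was not called without the YFP+ library of experiment 1 (adjusted p = 0.136), and Gc without either YFP+ library, by DESeq2, with only the bihormonal cells above the free Ppy level or with only those with a rtTA UMI. Per 1000000 UMIs Ttr stood at 2021 and 2564 in the bihormonal cells and at 2777 and 221 in non-endocrine YFP+ cells. Its summed level in experiment 1 was thus not above that of the non-endocrine cells. Their sum rested on 269 UMIs in 13 of 24 cells, and the highest Gcg level among these 24 was 2718 UMIs per 10000. Ttr was counted in 75.5 and 80.5% of the bihormonal cells and in 54.2 and 42.0% of non-endocrine YFP+ cells. Irx1, Irx2, Pou3f4 and Slc38a5 were not called. Of the 46 called genes chosen by list or size, 15 kept their call in every alternative in which they were fitted, among them Pyy, Cd24a, Cfap61, Dct, Fam159b, Fermt1, Frzb, Hhex, Iapp, Ly6h, Ptprz1, Rfx6 and Spock3.

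**Figure D2:**
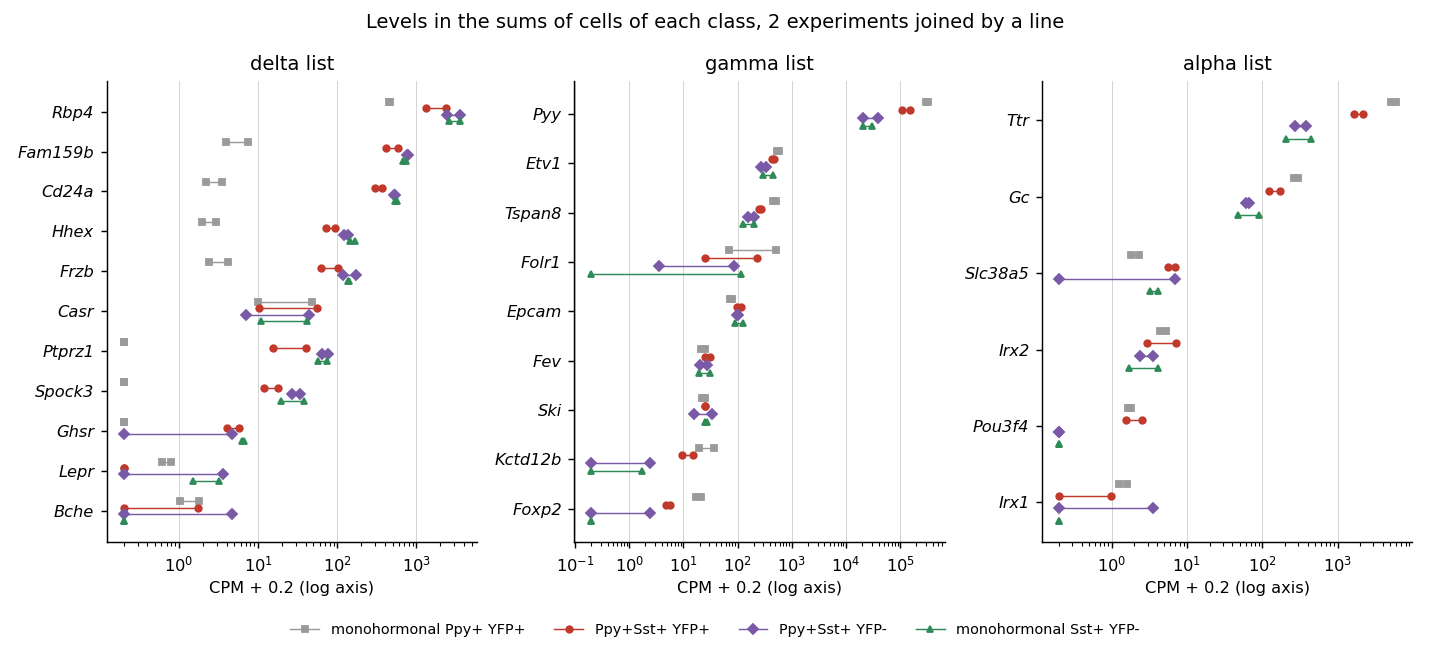
Levels of genes of the δ-, γ- and α-cell lists in CPM plus 0.2 on a log axis; each symbol is the sum of the cells of 1 class in 1 experiment and a line joins both experiments. For Hhex, Cd24a, Fam159b, Frzb, Pyy and Ttr the Ppy+Sst+ YFP+ cells lie between the monohormonal Ppy+ and Sst+ cells (Hhex 93.0 and 71.4 CPM, against 1.78 and 2.72 and against 144 and 166).

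Other lists held at most 2 called genes each, beside 3.62% called of all genes. Median log2 fold changes were -0.58 over 8 receptor genes, -0.46 over 10 immediate early genes and 0.36 over 11 excitability genes. Over 10 granin and processing genes the median was -0.09. In granins and prohormone processing, 1 of 10 tested genes was called, Scg5 (-0.81 ± 0.22), which encodes the chaperone of prohormone convertase 2, whereas Pcsk2 itself (-0.26 ± 0.13) and Chga (-0.48 ± 0.17) were not. Of 8 receptor genes the adrenergic receptor gene Adra2a was called higher, on 9 against 3 UMIs (ratio interval 3.62 to 83.3), and the fatty acid receptor gene Ffar1 lower, at 2.73 and 6.14 CPM against 19.6 and 14.8 (-1.83 ± 0.40). The T-type calcium channel gene Cacna1h was the 1 called gene of 11 for excitability (2.41 ± 0.65). Cacna1h and Adra2a were not called without either YFP+ library, and Scg5 and Ffar1 were not without that of experiment 1, with adjusted p of up to 0.624, 0.283, 0.577 and 0.367 over all settings. None of 10 immediate early genes, 3 cell cycle genes, 2 minor peptide genes and 2 receptor genes for somatostatin or neuropeptide Y was called.

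Markers of other cell types were counted in both classes. The stromal list summed to 5.47 and 9.21 CPM in the bihormonal cells and 61.2 and 42.7 in monohormonal Ppy+ cells, with Dcn, a matrix proteoglycan gene, at 1 against 261 UMIs the 1 called gene of 3. The immune list summed to 12.3 and 16.1 against 12.1 and 160 CPM, with Jchain, the joining chain of secreted immunoglobulin, called lower, at 0 and 1.54 against 0.990 and 147 CPM, and with Ptprc, Cd74, Retnla and Tyrobp at 0 in the bihormonal cells of experiment 1. The acinar list summed to 160 and 143 against 122 and 64.2 CPM, and Cela1, at 113 and 85.2 CPM its most abundant gene, was the only one of 8 called higher (3.29 ± 0.60). The ductal list summed to 123 and 214 CPM in the bihormonal cells and 259 and 311 in monohormonal Ppy+ cells, where Spp1 was its most abundant gene with 154 and 202 CPM. In this list Sox9 was called higher (2.28 ± 0.39), at 20.5 and 31.5 CPM, and Spp1 lower (-1.35 ± 0.38), while Krt19 stood at 0 and 2.30 CPM. Cela1 and Sox9 were not called without the YFP+ library of experiment 2, and Spp1 without either YFP+ library. No endothelial or glial gene was called, and Cdh5, Kdr, Plvap and Sox10 were at 0 in the bihormonal cells. Plvap and Cd74 were among the genes by which cells had been left out. Among the 12 largest decreases of genes without overlap between the classes were Dcn, Igkc, Nid1, Qpct, Ifi27l2a, Lgals1, Higd1a, Spry2, Foxp2, Csrp2 and Ffar1, from -5.80 for Dcn to -1.83 for Ffar1. Ifi27l2a, Lgals1, Higd1a, Spry2 and Csrp2 were not called without either YFP+ library, Nid1 was not without that of experiment 1, and Igkc and Qpct were not without that of experiment 2. Jchain overlapped between the classes, with 704 of its 709 UMIs in monohormonal Ppy+ cells counted in experiment 2 and 434 of these in 1 cell, and was not called by DESeq2 or without the YFP+ library of experiment 2. Of the 2464 Igkc UMIs of monohormonal Ppy+ cells in experiment 2, 2418 were in 1 cell. Dcn was counted in 11 and 20 monohormonal Ppy+ cells and Lgals1 in 19 and 26.

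Against monohormonal Sst+ cells, which exist in the YFP- fraction alone, the comparison asked what separates the bihormonal cells from δ-cells. Class and library cannot be told apart in it. Of 9654 genes, 155 were called (1.61%), 59 higher (0.611%) and 96 lower (0.994%). The larger number of lower genes did not hold without the YFP+ library of experiment 2, with 24 higher and 11 lower, or without the block, with 23 and 17. Without the YFP- library of experiment 1 these numbers were 52 and 151, and without that of experiment 2, 72 and 77. Restricted to the bihormonal cells with fewer UMIs than the median monohormonal Ppy+ cell, the count was 37, with 10 higher and 27 lower.

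Of the γ- and α-cell genes called lower in the first comparison, Pyy, Kctd12b, Ttr and Gc were called higher in this one, and Tspan8 (0.68, adjusted p = 0.0995), Folr1 (1.17, adjusted p = 0.0590) and Foxp2 (10 against 0 UMIs, adjusted p = 0.0943) were not. Pyy stood at 107864 and 155302 CPM in the bihormonal cells and at 29999 and 21051 in monohormonal Sst+ cells (2.38 ± 0.23, adjusted p = 6.01e-07). It stayed called among the shallow cells alone (1.01, adjusted p = 0.0401). The median non-endocrine cell held 43.5 and 80.5 Pyy UMIs per 10000 in the YFP+ libraries and 0.758 and 3.34 in the YFP- libraries. All bihormonal cells exceeded the YFP+ medians, and 55 of 102 and 158 of 159 exceeded the 95th percentiles of 535 and 147. The part of free RNA in Pyy was not tested. Kctd12b was called as well, on 23 against 1 UMIs (ratio interval 2.62 to 665), so that 2 of 10 γ-cell genes rose and none fell. Its level was not detectable above that of non-endocrine cells of the YFP+ libraries. Of 8 α-cell genes 3 rose, with a list median of 2.38, or 1.03 with genes at 0 set to their bounds. Ttr (2.57 ± 0.27) and Gc (1.12 ± 0.27) were among them. Among the shallow bihormonal cells alone Ttr (adjusted p = 0.711), Kctd12b and Gc were not called. Kctd12b and Gc kept their calls in 14 of 19 and 14 of 21 alternatives and each in 2 of 4 fits without 1 library: both were lost without the YFP+ library of experiment 2, Kctd12b also without the YFP- library of experiment 1 and Gc without that of experiment 2.

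Of 10 tested δ-cell genes, 2 were called lower than in monohormonal Sst+ cells and none higher, with a median log2 fold change of -0.76: Hhex at 93.0 and 71.4 CPM against 144 and 166 (-0.95 ± 0.24, adjusted p = 0.0447) and Cd24a at 365 and 299 against 533 and 562 (-0.73 ± 0.18, adjusted p = 0.035). Hhex kept its call in 10 and Cd24a in 8 of 21 alternatives, and each in 1 of 4 fits without 1 library. Among the shallow cells alone the differences were -0.18 (adjusted p = 0.946) and -0.08 (adjusted p = 0.962). Iapp was called lower, at 16239 and 12557 CPM against 27437 and 21314 (-0.76 ± 0.12), was at -0.13 (adjusted p = 0.922) among the shallow cells, and was not called without either YFP+ library or with thinned cells. Ly6h (-0.99 ± 0.20) was also called lower. Fam159b (-0.48), Rbp4 (-0.72), Frzb (-0.79), Spock3 (-1.01) and Ptprz1 (-1.36) were not called.

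Further genes that rose included the glycosyltransferase gene Galnt13 (at least 6.56-fold higher), Gpr119 and Ror2 (both at least 5.38-fold higher), and Ociad2, with 63 against 2 UMIs (ratio interval 5.88 to 187). Of 10 immediate early genes 3 rose, Fos (0.89 ± 0.22), Junb (1.05 ± 0.23) and Egr1 (0.78 ± 0.17), and each kept its call in 1 of 4 fits without 1 library. The β-cell factor gene Nkx6-1 (2.85 ± 0.62) and the granin gene Chga (0.78 ± 0.17) rose, whereas Ins1 (-2.29 ± 0.38) and Npy, on 2 against 64 UMIs, fell. The level of the other insulin gene, Ins2, was 97.98 and 41.2 UMIs per 10000 in the median monohormonal Sst+ cell, against 83.1 and 34.1 in non-endocrine cells of the same YFP- libraries and 14.8 and 5.15 in those of the YFP+ libraries, and the part of free insulin RNA in the decrease of Ins1 was not tested. Of the Npy UMIs 57 were in 9 cells of experiment 1 and 7 in 1 cell of experiment 2, and Npy was not called by DESeq2, without the YFP+ library of experiment 2, without the YFP- library of experiment 1 or among the shallow cells. Galnt13, Gpr119 and Ror2 were not called without the YFP+ library of experiment 2 or among the shallow cells. Nkx6-1 was not called without the YFP+ library of experiment 2, without the YFP- library of experiment 1 or among the shallow cells, and Chga was not without either library of experiment 2. Of 37 called genes followed over the alternatives in this comparison, Pyy and Igkc kept their calls in all of them.

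All 8 acinar genes were called lower in this comparison, and these calls rested on few cells. The list summed to 160 and 143 CPM in the bihormonal cells and to 2037 and 5156 in monohormonal Sst+ cells, with Ctrb1 the most abundant there. Of the 1570 and 3394 acinar UMIs of monohormonal Sst+ cells, however, 1 cell held 1335 (85.0%) in experiment 1 and 1 cell held 2670 (78.7%) in experiment 2. The median monohormonal Sst+ cell had 3.05 and 1.69 acinar UMIs per 10000, against 0 and 0.730 in the median bihormonal cell and 1.06 and 0 in the median non-endocrine YFP- cell. With the hormone thresholds raised by 1, 134 of 135 and 135 of 141 monohormonal Sst+ cells and 90 and 145 bihormonal cells remained, and the monohormonal Sst+ cells kept 235 and 154 acinar UMIs. None of the 8 genes was then called, with log2 fold changes from -3.75 to 0.021 (adjusted p from 0.539 to 0.997). In that setting 46 genes in all were called higher and 60 lower. Cpb1, an acinar carboxypeptidase gene, and Pnliprp2 were also called lower, and 1 cell held 97.0 and 76.3% of the Cpb1 UMIs and 94.1 and 84.2% of the Pnliprp2 UMIs of monohormonal Sst+ cells.

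Of 7 immune genes 3 were called lower, Cd74, Lyz2 and Jchain, and the list summed to 12.3 and 16.1 against 45.4 and 860 CPM. Cells high in Cd74 had been left out of every class, so that its call is given as a description. In experiment 2, 1 monohormonal Sst+ cell held 448 of 468 Jchain UMIs, 1 held 2690 of 2867 UMIs of Igkc, and 1 held 36 of 46 UMIs of Ighg2b, the latter pair being immunoglobulin genes among the largest decreases. In experiment 1, however, the 233 Igkc UMIs lay in 107 of 135 monohormonal Sst+ cells, with at most 9 in 1 cell. Gp2, with 14 of 16 and 25 of 34 UMIs in 1 cell each, was not called without either YFP+ library. Tff3 of the ductal list was called lower on 133 UMIs in experiment 2, of which 96 were in 1 cell, and none in experiment 1. S100a8 had 89 UMIs in 58 monohormonal Sst+ cells of experiment 2 and 1 in experiment 1. Tff3 and S100a8 were not called by DESeq2 or without the YFP+ library of experiment 2. The part of free RNA in the decreases of S100a8, Cd74 and Lyz2 was not tested. None of the genes for shared transcription factors, excitability, somatostatin and neuropeptide Y receptors, the cell cycle, endothelium, stroma and glia was called.

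Against Ppy+Sst+ cells of the YFP- fraction, chosen by the same hormone thresholds, sort and library again cannot be told apart. The YFP- cells had median Ppy levels of 161 and 105 UMIs per 10000 and Sst levels of 1885 and 1284, so that Ppy was lower and Sst higher than in the labelled cells. Of 9654 genes 57 were called (0.59%), 34 higher (0.352%) and 23 lower (0.238%) in the YFP+ cells. Lower calls were the more numerous without a filter (64 higher and 80 lower) and with only the 2 classes fitted (26 and 27). So they were with the bihormonal cells over the free Ppy level (56 and 72) or with a rtTA UMI (52 and 54). The balance of directions turned without the YFP- library of experiment 1, with 17 genes called higher and 69 lower. Without the YFP+ library of experiment 2 these numbers were 29 and 5, and without the block 17 and 1.

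Pyy (2.16 ± 0.23) and Ttr (2.59 ± 0.29) were higher in the labelled cells, as was Nkx2-2 (1.56 ± 0.33), a transcription factor gene shared by islet cells. Nkx2-2 kept its call in 13 of 21 alternatives and in 1 of 4 fits without 1 library (adjusted p of up to 0.933), and of 17 called genes followed over the alternatives Ighm alone kept its call in all of them. The elongation factor gene Ell2 was at least 6.24-fold higher. Ociad2 and Ddc, the gene of an enzyme of dopamine and serotonin synthesis, had 63 and 53 UMIs against 1 each (ratio intervals 4.01 to 928 and 3.35 to 783). Ell2 was not called without the YFP+ library of experiment 2 or the YFP- library of experiment 1, and Ddc was not without either YFP- library. None of 10 tested δ-cell genes was called in either direction (median -0.70), with Hhex at 93.0 and 71.4 CPM against 135 and 122. None of 8 acinar genes was called, at a median of -3.96. Cd74 and Lyz2 of the immune list, Ins1, the neutrophil gene S100a9, the immunoglobulin genes Ighm, Ighg1 and Igkc, and Prap1 were lower. Cd74 again is given as a description, since the rule left out cells high in it. Lyz2, S100a9, Ighg1, Igkc and Prap1 were not called without the YFP+ library of experiment 2. S100a9, with 1 and 31 UMIs in the YFP- cells of experiment 1 and 2, was not called by DESeq2 either. rtTA had 385 against 3 UMIs. Among shallow labelled cells alone 11 genes were called, 4 higher and 7 lower, and Pyy (0.80, adjusted p = 0.396) and Ttr (adjusted p = 0.888) were not among them.

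To place each cell between the 2 monohormonal classes without its hormones, a mixing weight was fitted as the share of the Sst+ profile against the Ppy+ profile that made the UMIs of the cell most likely. Profiles came from the other experiment, and Ppy, Pyy, Sst, Gcg, Ins1, Ins2, YFP, rtTA and mitochondrial genes were left out, which kept 9633 genes. The class labels come from hormones, and the weight from all other genes. The Sst+ profile came from the YFP- fraction alone and the Ppy+ profile from the YFP+ fraction alone. Class and library therefore cannot be told apart in the weight. Monohormonal Ppy+ cells had a median weight of 0 in both experiments, and monohormonal Sst+ cells 0.70 and 0.80, so that the upper end of the scale was not reached by typical Sst+ cells. Bihormonal YFP+ cells had medians of 0.62 and 0.49 and spread from 0 to 1. Ppy+Sst+ YFP- cells had medians of 0.685 and 0.80.

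The bihormonal cells covered the ranges of both monohormonal classes and the gap between them. In experiment 1, 13 of 102 (12.7%) lay at or below the 95th percentile of monohormonal Ppy+ cells, 22 (21.6%) between the classes and 67 (65.7%, 55.6 to 74.8) at or above the 5th percentile of monohormonal Sst+ cells. In experiment 2 these numbers were 44 of 159 (27.7%), 47 (29.6%) and 68 (42.8%, 35.0 to 50.8). Of the Ppy+Sst+ YFP- cells, whose fraction also gave the Sst+ profile, 73 of 78 and 51 of 59 lay in the Sst+ range. A weight above 0.75 was found in 15.7% (9.24 to 24.2) and 25.2% (18.6 to 32.6) of the bihormonal YFP+ cells, with a mean of 20.4 ± 6.70% (SD, n = 2), against 37.8 and 61.0% of monohormonal Sst+ cells and 0.555 and 2.05% of monohormonal Ppy+ cells. This share depended on the genes, the profiles and the depth used, and so did the order of the experiments. It was 70.6 and 47.2% with Pyy kept in, 52.9 and 44.0% with only the genes called between the monohormonal classes, 42.2 and 15.1% with profiles from the same experiment, and 13.7 and 9.43% with cells thinned to 1000 UMIs.

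**Figure D3:**
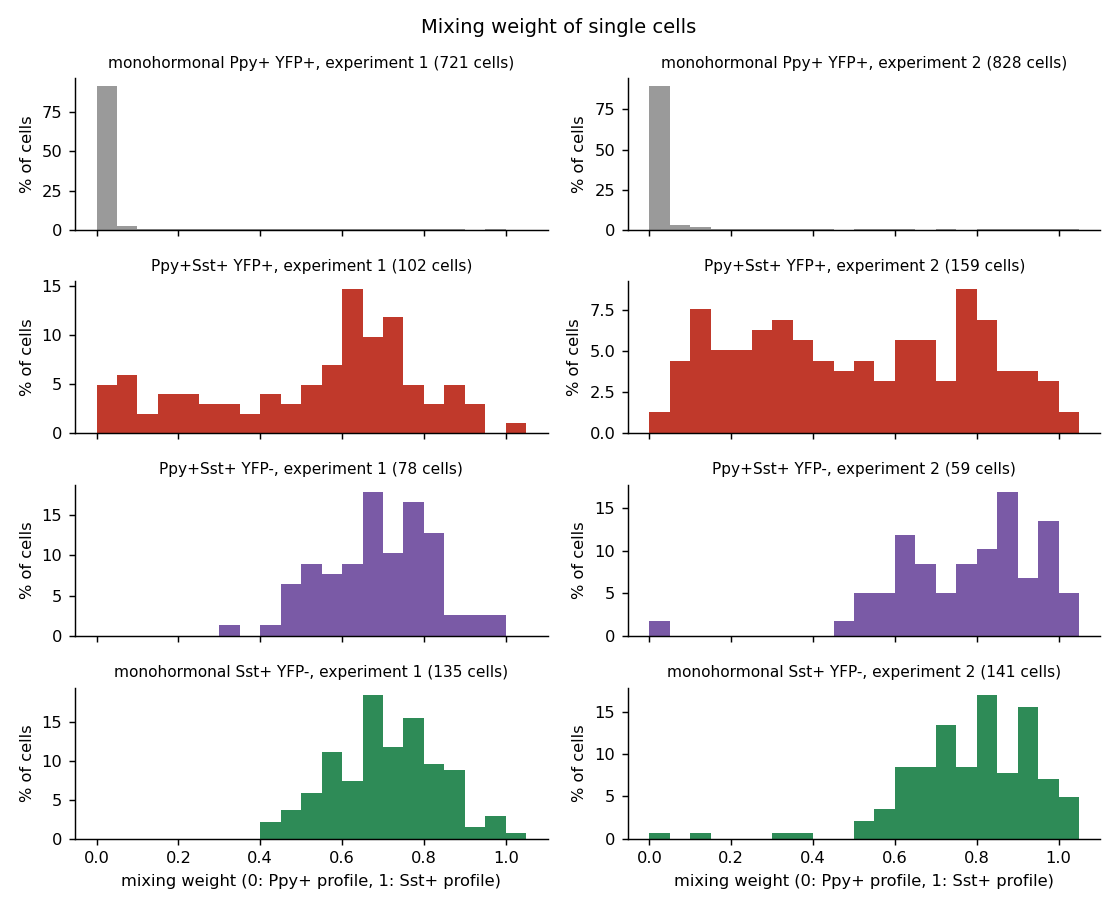
Histograms of the mixing weight, from 0 (monohormonal Ppy+ profile) to 1 (monohormonal Sst+ profile), in percent of the cells of each class and experiment, each panel with its own vertical scale. Ppy+Sst+ YFP+ cells (medians 0.62 and 0.49) fill the range between monohormonal Ppy+ cells (median 0) and monohormonal Sst+ cells (0.70 and 0.80), while Ppy+Sst+ YFP- cells lie with the latter.

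The weight moved with Ppy, with Sst and with the depth of the cell. Over 102 and 159 cells, Spearman's rho between the weight and the log of Sst was 0.675 and 0.809 (Pearson's r 0.773 and 0.797), and between the weight and the log of Ppy -0.617 and -0.704 (-0.682 and -0.701). Between the weight and the log of total UMIs rho was -0.373 and -0.609 (-0.558 and -0.608). These correlations are across cells of 1 library, which share their free RNA, and deeper cells give a sharper weight. In monohormonal Ppy+ cells, most of which lie at the lower bound of 0, the 95th percentile of the weight was 0.30 and 0.469 below their median depth and 0.06 and 0.0735 above it.

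Split at the median depth of monohormonal Ppy+ cells, 7575 and 5887 UMIs, the bihormonal cells fell into 81 and 95 shallow and 21 and 64 deep cells. The shallow cells had a median of 3726 and 2886 UMIs and 1291 and 1075 genes, close to monohormonal Sst+ cells with 4130 and 2942 UMIs and 1385 and 1173 genes. The deep cells had 12508 and 10195.5 UMIs and 2467 and 2309 genes. The median weight was 0.64 and 0.69 in shallow and 0.22 and 0.25 in deep cells. The 5th percentile of the deep bihormonal cells was 0.05 and 0.09. In monohormonal Ppy+ cells of that depth the 95th percentile was 0.06 and 0.0735, so that most deep bihormonal cells lay above it. Sst dominated in the shallow cells, at a median of 1361 and 1146 UMIs per 10000 against 335 and 320 of Ppy. Ppy dominated in the deep cells, at 1989 and 1808 against 300 and 205 of Sst.

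**Figure D4:**
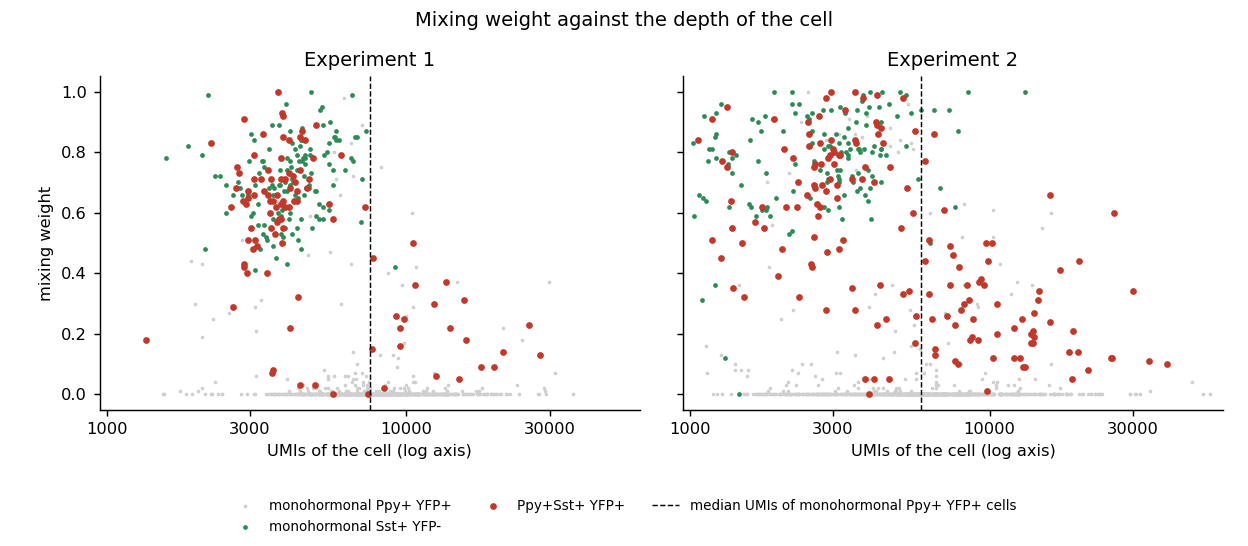
Mixing weight of each cell against its UMIs on a log axis, for experiment 1 and 2, with a dashed line at the median UMIs of monohormonal Ppy+ cells (7575 and 5887). Bihormonal cells (red) left of the line, with median weights of 0.64 and 0.69, lie mostly at the depth and weight of monohormonal Sst+ cells (green), and those right of it have median weights of 0.22 and 0.25.

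Marker genes followed this split. In the summed UMIs, here as CPM without TMM scaling and with no test, Ttr stood at 531 and 935 in shallow and at 3589 and 3141 in deep cells. Cd24a went the other way, from 699 and 746 CPM in shallow to 174 and 210 in deep cells, as did Hhex, from 191 and 189 to 30.6 and 46.3. Deep cells thus held Ttr nearer to the level of monohormonal Ppy+ cells, with less Cd24a and Hhex, and 76.2 and 81.3% of them had a Cd24a UMI.

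rtTA was counted in 25.9% (16.8 to 36.9) and 18.9% (11.6 to 28.3) of the shallow cells and in 71.4 and 54.7% of the deep cells. Per 1000 Ppy UMIs the shallow cells held 3.25 (2.41 to 4.30) and 1.67 (1.11 to 2.42) rtTA UMIs and the deep cells 2.72 and 0.960, against 1.91 and 1.09 in monohormonal Ppy+ cells. rtTA per Ppy was therefore not measured lower in shallow bihormonal cells than in monohormonal Ppy+ cells of the same library. The part of free RNA in this ratio was not tested. Intervals of rtTA per 1000 Ppy UMIs, here and above, treat UMIs as independent. Of the rtTA UMIs of the bihormonal cells, however, 1 cell held 31 of 213 in experiment 1 and 1 cell 25 of 172 in experiment 2.

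A droplet with 2 cells would hold more UMIs and both sets of genes, and the doublet markings are given beside the split. A nearest-neighbour caller set to 2% marked 120 of 5982 cells and, with fractions of an experiment joined, 0 of 261 bihormonal cells. Run within each library, where monohormonal Sst+ cells are not among the simulated parents in the YFP+ fraction, it marked 6 of 102 and 7 of 159, of which 3 and 0 were shallow and 3 and 7 deep. In monohormonal Ppy+ cells it marked 1.80 and 2.05%. The authors removed doublets in their analysis. The deposited matrices hold cells within the authors' limits for depth and mitochondrial share, and whether doublets had already been removed from them was not tested. In all, 19 barcodes occurred in more than 1 library, in 39 cells of which 3 were bihormonal YFP+ cells, and without them 340 genes were called against monohormonal Ppy+ cells. The part of doublets in the deep bihormonal cells was not tested beyond these markings.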

How the data were processed

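Single cells of sorted YFP+ and YFP- islet fractions were counted in 2 experiments. The deposited matrices hold UMI counts per gene and cell, which the authors made with Cell Ranger on mm10 with YFP and rtTA added. They kept cells with at least 500 genes and 1000 UMIs and limited the mitochondrial share, which was at most 6.97% in these matrices. The cells and gene lists were chosen with earlier results of these data known. Cells were classed by the hormone thresholds, and UMIs were summed per class and experiment into 16 sums of 8 classes. edgeR 4.0.16 (R 4.3.3) with TMM scaling, its expression filter and the experiment as a block fitted 9654 genes by quasi-likelihood with Benjamini-Hochberg adjustment. With this block, p-values measure the spread of class sums left after the shift between the 2 pooled islet preparations is removed. That spread was estimated over all 8 classes, and the 3 comparisons share the sums of the bihormonal cells. The same mice were sorted into both fractions, so that the number pairs the libraries, and deviations from class means correlated between classes of 1 experiment at a median of 0.178 (lowest 0.0603) over 28 pairs.

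All genes of 18 fixed lists may be named (δ-, γ-, α- and β-cell, shared transcription factors, granins, minor peptides, receptors, excitability, immediate early, cell cycle and 6 other cell types), besides the 12 genes (6 in both comparisons with YFP- cells) with the largest change in each direction among called genes without overlap and with at least 10 CPM. Predicted genes stayed unnamed, and some genes are not reported here. Folds against a class at 0 used a floor of 3 counts over the class. The mixing weight used a grid of 0.01 with 0.5 added per gene. Doublets were marked by a nearest-neighbour caller in numpy 2.4.6 set to 2%. Code was tested on simulated data. Alternatives were DESeq2 1.42.0, other scaling, filters, folds, thresholds and samples. The 4 with cells over the free Ppy level, with a rtTA UMI, without shared barcodes or of low depth were chosen after seeing the data. Other files were not used here.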

Additional observations from a re-analysis of the deposited data

How the results depend on the processing

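Against monohormonal Ppy+ cells, where 349 genes were called, the count was 126 with cells thinned to 1000 UMIs, 547 with only the compared classes fitted, 143 with cells over the free Ppy level, 113 with cells holding a rtTA UMI and from 107 to 520 with 1 library left out. Against monohormonal Sst+ cells (155) it was 89 by DESeq2, 43 thinned, 243 without a filter, 263 over the free Ppy level, 37 in shallow cells and from 35 to 203 with 1 library left out. Against Ppy+Sst+ YFP- cells (57) it was 35 by DESeq2, 11 thinned, 144 without a filter, 128 over the free Ppy level, 106 with rtTA, 11 in shallow cells and from 34 to 86 with 1 library left out. Settings also differed in the number of genes tested, so that these counts are not parts of 1 total. Thinned cells left 2318 genes to test and no filter 19059, against 9654 in the main fits. With only the compared classes fitted, 10335 genes were tested against monohormonal Ppy+ cells. Without the replicate block, which the pairing of fractions calls for, the counts were 176, 40 and 18. The share of bihormonal cells with a weight above 0.75, at a mean of 20.4%, was 34.0% without the 5% of cells richest in UMIs, 29.8% with thresholds raised by 1, 58.9% with Pyy, 11.6% thinned, 48.5% with called genes only, 28.6% with profiles of the same experiment and from 15.7 to 25.2% with 1 experiment. The cause of these shifts was not tested. The other counts stayed within 1.5 times the values given, and the share of bihormonal cells among YFP+ cells moved by less than its SD in the alternatives that kept both experiments. Of 929, 748 and 336 values of called genes in the 3 comparisons, 795, 591 and 271 kept their call. The reversed value was Cela1 against monohormonal Sst+ cells, at a log2 fold change of 0.021 (adjusted p = 0.997) with thresholds raised by 1. With 2 experiments, a fit without 1 library rests on a lone sum that is assumed to vary like the others, and genes with few UMIs, such as Ghsr, were limited by depth.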

Other observations

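UMIs of the islet hormones that the rule kept low are given as a description, beside their level in non-endocrine cells of the same libraries. The median Gcg level of the bihormonal cells was 10.3 and 11.4 UMIs per 10000, against 13.9 and 12.1 in non-endocrine YFP+ cells. Their median Ins2 level was 16.8 and 7.01 UMIs per 10000, against 14.8 and 5.15 in non-endocrine YFP+ cells. These medians are at or close to the level of cells that should lack both hormones and are not read as expression.

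Grouped by mixing weight, the 21 and 37 bihormonal cells below 0.25 had a median of 9486 and 12082 UMIs and held rtTA in 61.9 and 51.4%. The 16 and 40 cells above 0.75 had a median of 3875.5 and 2976 UMIs, held rtTA in 31.3 and 10.0% and YFP in 25.0 and 35.0%, and none of them was marked as a doublet within its library. Median Ppy in the cells above 0.75 was 207 and 292 UMIs per 10000, against a median of 74.4 and 105 in non-endocrine cells of the same libraries.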
